A study of Mus musculus with 4 samples.

Results

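Contacts between stretches of chromatin 8 to 40 kb apart, about the span of a typical gene, were described bin by bin in mouse ESCs (embryonic stem cells) and in the MNs (motor neurons of cervical type) derived from them. The contact lists pair bins of 8 kb within a chromosome, and D is the distance of a pair counted in bins. For each of the 19 autosomes, the contacts of the pairs that start in a bin and have D 1 to 5 were summed and divided by the contacts inside that bin (D=0) in the same library. This quotient is called the contact ratio. A bin was used when it had at least 50 contacts at D=0 in each library and when all its pairs with D 1 to 5 were listed in both cell states, which left 265898 of the 293709 autosomal bins that have a D=0 pair in both lists. The autosomal pairs with D 1 to 5 number 1444877 of the 23095428 listed pairs in ESCs and 1433555 of 21005697 in MNs.

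Micro-C, which digests fixed chromatin between nucleosomes with micrococcal nuclease and ligates the ends in place, was performed with 1 library in each of 4 groups. The groups are WT ESCs and PATZ1 KO ESCs of the E14 line, kept with LIF and 2 kinase inhibitors, and WT and PATZ1 KO MNs, made through embryoid bodies treated with retinoic acid and a smoothened agonist. PATZ1 is a zinc finger protein that the study examined at chromatin boundaries, and its knockout was made by CRISPR in the ESCs, from which single clones were picked, so that the knockout MNs carry the same change. Which clone gave the Micro-C libraries is not given in the sources used here, and each library is 1 pool of cells. Every value list of 4 libraries below is in the order WT ESC, KO ESC, WT MN, KO MN, unless it says otherwise. Contact maps do not measure RNA, so the labelled cell types were not checked against marker expression. There were no replicates. Every interval below is a 95% interval for counting error only, it says nothing about the spread between cultures, and no test of the conditions was run. A bin or gene is said to rise or fall when it passed a stated fold between libraries, which describes those libraries.

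At this scale a contact map reflects how a gene's own chromatin folds: nucleosome fibres, loops between promoters and nearby enhancers, loop extrusion by cohesin, and compaction along transcribed or silent genes. CpG-rich gene starts are usually free of nucleosomes and bound by factors. CTCF and cohesin bring distant sites together at larger scales, and Hox clusters, a family of patterning genes that give MNs their position along the neck and trunk, are a known case of local folding that changes in differentiation.

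The 4 libraries differed in depth and in how the ratio followed base composition. The listed contacts summed to between 110991835 in WT MNs and 170946673 in WT ESCs, and the median bin had 143 to 223 contacts at D=0 and 96 to 150 contacts at D 1 to 5. Of the latter, 49.96% to 53.9% were at D 1. The median ratio was 0.676, 0.645, 0.677 and 0.630 in the 4 libraries, and 98% of bins in WT ESCs lay between 0.356 and 1.08. The WT MN library stood apart. Across bins, Spearman's correlation of the ratio with GC content was -0.38, -0.41, 0.099 and -0.27, so that WT MNs alone had a value above 0. In the poorest of 50 GC classes, with a median GC content of 33.7%, the median ratio was 0.760, 0.734, 0.632 and 0.667 in the 4 libraries. In the richest class, at 53.8% GC, it was 0.558, 0.500, 0.6503 and 0.528. Any change that involves the WT MN library therefore moves with GC content, and whether this belongs to the cells or to the library was not tested. For this reason changes are given at matched GC, that is, minus the median change of the bins or genes of the same GC class, wherever this is stated.

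**Figure D1:**
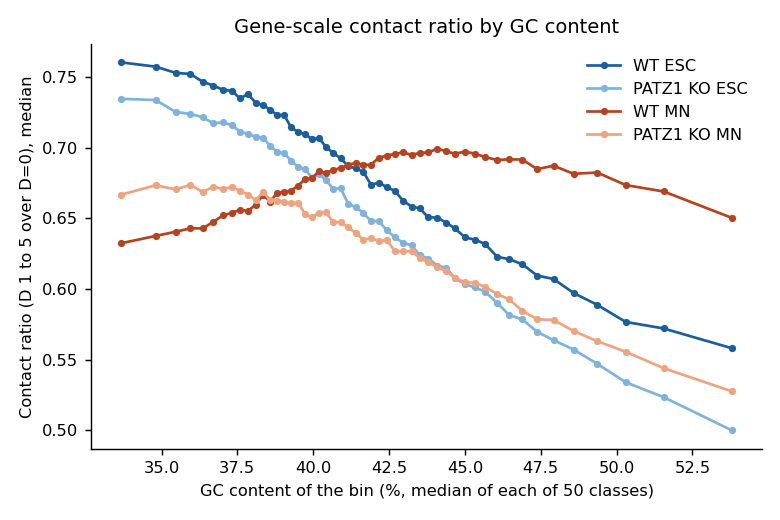
Median contact ratio (contacts at D 1 to 5 over contacts at D=0) of the bins in each of 50 GC classes, against the median GC content of the class in percent, for the 4 libraries. The ratio falls from left to right in both ESC libraries and in PATZ1 KO MNs, while in WT MNs it is lowest at the left, at 0.632.

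The ratio changed over gene starts, and did so by CpG content. The promoters of 6 genes are shown because these genes are described further on: Tpr, a nuclear pore basket protein with the highest gene body ratio in WT ESCs; Mdn1, a ribosome assembly ATPase, and Efnb2, an ephrin ligand, whose bodies fell from ESCs to MNs; Pbrm1, a chromatin remodelling subunit, and Atf2, a transcription factor, whose bodies rose; and Olfr456, an olfactory receptor gene. Each is the run of 250 bases before the annotated start, 5′ to 3′ on the gene's strand, from RefSeq (GRCm38.p6), with CpG dinucleotides in capitals. They hold 13, 20, 27, 31, 24 and 1 CpG dinucleotides in that order, where the median of the 32851 promoters in that table is 6 and that of 948 olfactory receptor promoters is 1.
Tpr (chr1:150392588-150392837, plus strand): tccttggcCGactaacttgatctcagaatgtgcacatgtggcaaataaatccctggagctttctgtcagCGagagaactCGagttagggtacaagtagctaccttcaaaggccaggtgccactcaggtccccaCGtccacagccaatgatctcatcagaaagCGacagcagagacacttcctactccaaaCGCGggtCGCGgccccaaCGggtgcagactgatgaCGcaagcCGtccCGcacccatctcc
Mdn1 (chr4:32656869-32657118, plus strand): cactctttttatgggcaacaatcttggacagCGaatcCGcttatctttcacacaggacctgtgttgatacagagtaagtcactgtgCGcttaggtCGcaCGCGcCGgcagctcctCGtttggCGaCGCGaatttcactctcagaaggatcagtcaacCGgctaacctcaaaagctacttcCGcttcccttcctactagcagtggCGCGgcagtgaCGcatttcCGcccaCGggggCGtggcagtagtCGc
Efnb2 (chr8:8661243-8661492, minus strand): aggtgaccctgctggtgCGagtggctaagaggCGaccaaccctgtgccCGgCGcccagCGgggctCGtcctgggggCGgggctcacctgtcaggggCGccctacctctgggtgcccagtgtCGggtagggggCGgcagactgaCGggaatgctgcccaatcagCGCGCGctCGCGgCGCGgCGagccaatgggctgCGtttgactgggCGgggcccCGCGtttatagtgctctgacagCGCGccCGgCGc
Pbrm1 (chr14:31018888-31019137, plus strand): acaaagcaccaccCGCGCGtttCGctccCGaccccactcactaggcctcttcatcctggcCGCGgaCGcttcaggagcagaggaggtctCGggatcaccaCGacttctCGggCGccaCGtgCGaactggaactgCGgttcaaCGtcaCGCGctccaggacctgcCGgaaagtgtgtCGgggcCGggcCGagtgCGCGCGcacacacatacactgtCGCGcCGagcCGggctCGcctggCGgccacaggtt
Atf2 (chr2:73892640-73892889, minus strand): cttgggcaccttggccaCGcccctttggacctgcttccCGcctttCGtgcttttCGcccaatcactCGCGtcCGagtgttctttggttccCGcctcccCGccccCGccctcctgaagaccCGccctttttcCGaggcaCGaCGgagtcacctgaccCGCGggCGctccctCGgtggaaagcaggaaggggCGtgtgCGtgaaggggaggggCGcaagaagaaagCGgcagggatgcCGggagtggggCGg
Olfr456 (chr6:42487215-42487464, minus strand): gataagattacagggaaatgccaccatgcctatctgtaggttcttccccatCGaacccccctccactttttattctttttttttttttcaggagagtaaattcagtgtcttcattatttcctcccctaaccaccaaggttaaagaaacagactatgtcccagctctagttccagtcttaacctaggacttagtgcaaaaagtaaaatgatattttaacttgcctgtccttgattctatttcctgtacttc

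In each library, contacts that cross a gene start were fewer than contacts that run downstream from the bin after the start. In short genes the latter can pass the gene's end. Over 16635 autosomal protein-coding genes, the ratio was taken in the bin before the start, whose contacts cross it, and in the bin after the start, whose contacts stay downstream. The first was below the second by a median log2 difference of 0.15, 0.16, 0.15 and 0.14 in the 4 libraries, and it was the lower of the pair at 65.2%, 65.5%, 64.4% and 63.9% of genes. In the opposite direction, contacts from the bin after the start back across it had a median ratio of 0.564 in WT ESCs, and the start bin itself 0.623. The start bin also had a lower D=0 count, with a median of 204 in WT ESCs against 222 in the bin after, which raises its ratio. No other denominator is given for this direction, so a drop against transcription is not established here.

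The step depended on the CpG content of the start bin. Among the 4394 genes whose start bin was in the highest of 4 classes by CpG count, the log2 step was -0.29, -0.32, -0.31 and -0.32, and 78.1% to 79.0% of genes were below 0. Among the 3826 genes in the lowest class it was 0.047, 0.044, 0.043 and 0.052, with 43.4% to 45.7% below 0. The 725 olfactory receptor genes, whose start bins held a median of 33 CpG dinucleotides, had steps of 0.12, 0.092, 0.087 and 0.12. The D=0 count of the start bin was itself lower at CpG-rich starts, with a median of 187 in WT ESCs against 218 in the bin before and 220 in the bin after, so the step was recomputed in 2 other ways. With each pair divided by the geometric mean of the D=0 counts of its bins, the step at CpG-rich starts was -0.24 to -0.27 and at CpG-poor starts 0.0020 to 0.0083. With D 2 to 5, which leaves out pairs of the start bin with the bin beside it, it was -0.33 to -0.38 and 0.022 to 0.030.

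**Figure D2:**
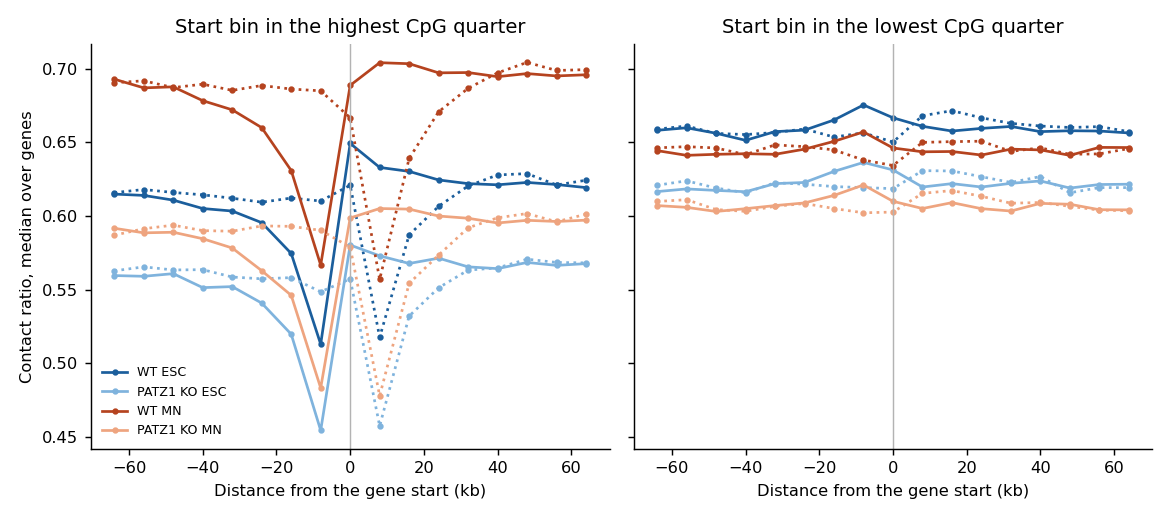
Median contact ratio over genes by distance of the bin from the gene start in kb (the gene lies to the right of 0), for start bins in the highest (left) and lowest (right) of 4 classes by CpG count, in the 4 libraries. Solid lines are contacts that reach in the direction of transcription and dotted lines contacts that reach against it. At CpG-rich starts both lines drop in the bin next to the start, to 0.513 and 0.518 in WT ESCs. At CpG-poor starts neither does. The dotted lines use only the bin's own D=0 count, which is lower in CpG-rich start bins, so a drop against transcription is not established.

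The start bins of Tpr, Mdn1, Efnb2, Pbrm1, Atf2 and Olfr456 held 169, 156, 317, 178, 179 and 38 CpG dinucleotides, where the median over all gene starts in this comparison is 137. At Tpr the ratio before the start was 0.593, 0.374, 0.464 and 0.406, and after it 1.35, 1.25, 1.04 and 1.24, a log2 step between -1.17 and -1.74. At Mdn1 the step was -0.54 and -0.94 in the ESC libraries and -0.15 and -0.19 in the MN libraries. Efnb2 showed the opposite order, with -0.068 and -0.22 in ESCs and -0.83 and -1.24 in MNs. The Pbrm1 step was -0.15 and -0.29 in ESCs and -0.43 and -0.69 in MNs, and that of Atf2 lay between -0.32 and -0.65 in all 4 libraries. Olfr456 ran the other way in each library, with steps of 0.69 to 0.96. Tpr, Mdn1, Efnb2, Pbrm1 and Atf2 were picked by their gene body ratio or its change, which includes the bin after the start. Their steps are therefore tied to that choice and do not stand for other CpG-rich starts.

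The size of the step differed between gene classes. Genes longer than 100 kb had steps of -0.24, -0.25, -0.21 and -0.22 over 2089 genes. Zinc finger genes of the Zfp series, most of them DNA-binding repressors, had -0.27, -0.27, -0.24 and -0.21 over 262 genes, and 58 ribosomal protein genes had -0.14, -0.42, -0.27 and -0.33. The 39 Hox genes, which lie close together in 4 clusters, had no step in any library, with values from -0.020 to 0.041. Motor neuron genes, 35 transcription factors and neuronal genes, had steps of -0.28 and -0.16 in the ESC libraries and -0.44 and -0.40 in the MN libraries. The 30 pluripotency genes had -0.20 and -0.22 in ESCs and -0.10 and 0.0028 in MNs. For these 2 short lists the medians thus moved in opposite directions from ESC to MN in both genotypes, which was not tested. The share of motor neuron genes with a step below 0 hardly moved, at 82.9%, 74.3%, 82.9% and 77.1% in the 4 libraries, while that of pluripotency genes was 73.3%, 70.0%, 66.7% and 50%.

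Bins with the highest ratio over their own D=0 count in WT ESCs were mostly repeat-rich and outside genes. The highest hundredth in WT ESCs, 2660 bins at 1.08 or more, had a median repeat content of 60.8% against 27.0% over all bins used. Of these bins, 30.2% overlapped a protein-coding gene and 2.90% held a gene start, against 48.2% and 6.29% of all bins. Their median D=0 count was 117 against 223. In the other libraries the medians of the same bins were 1.00, 0.853 and 0.900, above the medians of all bins. Of these bins, 41.7% were also in the highest hundredth of PATZ1 KO ESCs, 18.8% in that of WT MNs and 32.7% in that of PATZ1 KO MNs. The highest hundredth of WT MNs had a median repeat content of 44.8%, with 47.7% in genes and 6.21% with a gene start, at a median of 93 contacts at D=0 against 143. By their own D=0 count, the 10 highest named bins in WT ESCs had 24.3% to 76.4% repeats. By the geometric mean of both bins' D=0 counts, the 10 highest had 14.7% to 57.1%. No hundredth was taken by the geometric mean, so the traits above belong to the first ratio.

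The highest single bins among those with at least 100 contacts at D=0 included genes of several kinds. The bin at Itln1 (chr1:171512001-171520000, mm10 as all coordinates), which encodes a lectin, had a ratio of 1.57, 1.45, 1.32 and 1.30 in the 4 libraries. It was thus high in every library. Its D=0 count was also high, at 2.41 times the library median in WT ESCs, and what raised it was not tested. The bin at the start of Rif1 (chr2:52072001-52080000), a regulator of replication timing, had 1.39, 1.07, 0.807 and 0.830 in the same order, with both ESC values above both MN values. Bicd1, a dynein adaptor, had 1.46, 0.915, 0.787 and 1.17, a value that was not shared within a cell state or a genotype. The second-highest bin in both WT libraries lies at Gm10801 (chr2:98656001-98664000), with 1.47, 1.63, 1.48 and 1.15, directly before the second-lowest bin given below. The D=0 count of this Gm10801 bin was 3.74 times the library median in WT ESCs and 2.97 times in WT MNs. In WT MNs the others in genes included a second bin of Itln1 and bins in Rbms3, Xpo6, Rbm25, Sf3b1 and Ubap2l. The last 3 are RNA-binding or splicing genes, and their bins had 1.32, 1.31 and 1.31 in WT MNs and 0.915, 0.951 and 1.06 in PATZ1 KO MNs. In WT and PATZ1 KO ESCs the Rbm25 bin had 0.913 and 0.884, Sf3b1 0.879 and 0.673, and Ubap2l 1.076 and 1.075. These bins were ranked by the WT MN value, so that value repeats the choice. With the geometric mean as denominator, the bins in Olfr417, Csmd1, Zfp52, Galnt11 and Tpr were among the highest in WT ESCs. Of these, by this denominator, the Csmd1 bin had 1.74, 0.703, 0.982 and 1.06 and the Tpr bin (chr1:150400001-150408000) 1.38, 1.25, 0.994 and 1.16. Over its own D=0 count the Csmd1 bin was not high in any library. It had 130, 117, 87 and 78 contacts at D 1 to 5 and 354, 275, 217 and 237 at D=0.

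The lowest and second-lowest bins were the same in both WT libraries, were low in every library and held far more D=0 contacts than the median bin. The lowest bin overlaps Sfi1 and Drg1 (chr11:3192001-3200000) and had ratios of 0.026, 0.023, 0.028 and 0.026, with a D=0 count 36.0 times the library median in WT ESCs. Next came the bin with Gm10801 and Gm10800 (chr2:98664001-98672000), with 0.056, 0.059, 0.061 and 0.061 and 9.48 times the median. A bin with the noncoding genes Gm26917 and Gm42418 (chr17:39840001-39848000), which ranked 10 among the lowest in WT ESCs, had 0.157, 0.122, 0.117 and 0.166. Its D=0 count was 49.8 times the median in WT ESCs and 20.1 times in WT MNs. The D=0 counts of these 3 bins were thus far above those of the rest. Of the 10 lowest named bins in WT ESCs, 4 had over 3 times the median, and bins without that excess included AW822073 (0.121, 0.155, 0.127 and 0.109) and Apol10a (0.150, 0.135, 0.120 and 0.167). Over the lowest hundredth of WT ESCs, 2659 bins at 0.356 or less, only 0.414% had such an excess, and 11.6% held a gene start against 6.29% of all bins. The lowest hundredth of WT MNs lay less often in genes, at 27.0%. Of the lowest WT ESC bins, 44.0% were shared with PATZ1 KO ESCs, 33.7% with WT MNs and 37.4% with PATZ1 KO MNs.

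From ESCs to MNs in WT, 8421 of 265898 bins rose 1.5-fold or more after centring, 3.17%, and 10416 fell, 3.92%. In the PATZ1 KO pair, which shares no library with the WT pair, 7846 rose, 2.95%, and 5117 fell, 1.92%. The SD of the change over bins was 0.324 in WT and the root mean square counting error 0.252, so most of the spread between single bins was counting error. Of the bins that rose in WT, 10.9% also rose in the PATZ1 KO pair, and of those that fell, 4.20% also fell. Pearson's r between the 2 changes across bins was 0.20, and at matched GC it was 0.14, with 5600 bins higher and 6656 lower in WT.

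Among bins with the start of a protein-coding gene, the 10 largest rises in WT lay in bins of 46.2% to 55.3% GC, where the median over gene starts is 46.3%, and they were ranked by the centred change, which moves with GC content in WT. The bin of Cdipt and Sez6l2 (chr7:126968001-126976000), a lipid synthase and a neuronal membrane protein, had 0.196 in WT ESCs and 0.536 in WT MNs, and 0.238 and 0.379 in the PATZ1 KO pair. The log2 change was 1.27 in WT and 0.63 in PATZ1 KO at matched GC. The bin of Scrt2, a neuronal repressor of the Snail family, went from 0.356 to 0.889 in WT and from 0.463 to 0.696 in PATZ1 KO, 1.11 and 0.51 at matched GC. The start of Usp20, a deubiquitinase, gave 1.09 and 0.78. In 9 of the 10 the PATZ1 KO pair changed the same way at matched GC, and the exception was Krt90 (1.03 and -0.014).

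The largest falls agreed less. The start of Sox11 (chr12:27336001-27344000), a transcription factor of early neurons, had 0.540 in WT ESCs and 0.269 in WT MNs, and 0.417 and 0.198 in the PATZ1 KO pair, a log2 change at matched GC of -1.22 in WT and -1.12 in PATZ1 KO. Sox11 thus had its higher ratio in ESCs in both pairs. Bdnf, a neurotrophin, went from 1.00 to 0.477 in WT and from 0.782 to 0.521 in PATZ1 KO, and the start of Cntnap2, a neuronal adhesion gene, from 0.944 to 0.427 and from 0.802 to 0.596. The olfactory receptors Olfr872 and Olfr393 also fell in WT and gave 0.038 and 0.12 in PATZ1 KO at matched GC.

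Gene lists were read at the start bins, where 314 of 16711 bins rose in WT at matched GC, 1.88%, and 672 fell, 4.02%. In the PATZ1 KO pair 644 rose, 3.85%, and 427 fell, 2.56%. The median change over all gene starts was -0.050 in WT and 0.015 in PATZ1 KO. Of 32 pluripotency starts, 0 rose and 6 fell in WT, with a median of -0.27, while in PATZ1 KO 2 rose and 2 fell, with a median of 0.028. Tet1, a DNA demethylase of ESCs, fell in both: its start had 0.855 and 0.510 in WT and 0.498 and 0.325 in PATZ1 KO, changes of -0.90 and -0.64 with counting half-intervals of 0.51 and 0.57. Klf5, a pluripotency factor, had -0.84 in WT and -0.089 in PATZ1 KO. Fgf4, an ESC growth factor, had 0.23, within its half-interval of 0.46, and 0.74.

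Of 37 motor neuron starts, 0 rose and 2 fell in WT, and 0 rose and 1 fell in PATZ1 KO. Isl1, a homeodomain factor of MN identity, had 0.696, 0.688, 0.352 and 0.637 in the 4 libraries. Its low value was thus in 1 library, and the change was -1.12 in WT and -0.13 in PATZ1 KO. Of 32 Hox start bins, 1 rose and 4 fell in WT, and 0 rose and 5 fell in PATZ1 KO, with medians of -0.042 and -0.17. Hoxa3 had 0.754 and 0.566 in WT and 0.659 and 0.444 in PATZ1 KO, a change of -0.64 in each pair with half-intervals of 0.44 and 0.45. Hoxd9 had -0.61 and -0.80, and Hoxa5 -0.71 and -0.41. These 3 were the largest falls of the Hox list in WT, so their WT values repeat the choice. In PATZ1 KO, Hoxa3 and Hoxd9 passed their half-intervals of 0.45 and 0.555, and Hoxa5 lay within its 0.46. Hoxd1 had 0.695, 0.936, 1.202 and 0.781, with 0.62 in WT and -0.29 in PATZ1 KO.

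Counts in the other lists are to be read against all gene starts. There 1.88% rose and 4.02% fell in WT, and 3.85% and 2.56% in PATZ1 KO. Retinoic acid genes had 0 bins past the fold of 15 in either pair, and the start of Cyp26c1, a retinoic acid degrading enzyme, had 0.49 in each pair, within the counting half-intervals of 0.53 and 0.55. Of 29 cadherin and synaptic adhesion genes, 0 rose and 6 fell in WT and 0 rose and 2 fell in PATZ1 KO. Of 211 start bins of genes of 500 kb or more, 3 rose and 22 fell in WT, and 0 rose and 10 fell in PATZ1 KO, with medians of -0.22 and -0.14. Olfactory receptors had 15 of 948 higher and 41 lower in WT, and 16 and 22 in PATZ1 KO. Of 69 ribosomal protein starts 5 rose and 2 fell in WT and 1 rose and 1 fell in PATZ1 KO, of 28 histone starts 2 rose and 0 fell and then 0 rose and 1 fell, and 183 vomeronasal receptor starts had 1 and 11, then 0 and 3. Of 298 Zfp starts, 6 rose and 16 fell in WT and 18 rose and 10 fell in PATZ1 KO. Zfp462 and Zfp385a fell in both pairs, with -0.96 and -0.67 and with -0.96 and -0.84. Of 16 insulation and cohesin starts 0 passed the fold in either pair, and of 32 starts of other lineages 0 rose and 1 fell in WT, Foxc1 (-0.96), against 1 and 1 in PATZ1 KO.

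Summing over whole genes lowered the counting error, and the 2 pairs then shared far more. For 7254 protein-coding genes with at least 5 bins used, the contacts at D 1 to 5 of all the gene's bins were divided by their D=0 contacts. The root mean square counting error of a change was 0.081 in WT and 0.084 in PATZ1 KO, and the SD over genes 0.121 and 0.145. At matched GC, Pearson's r between the WT pair and the PATZ1 KO pair was 0.46 across genes, which are not independent replicates, since neighbours can share bins. A gene is called here at 1.2-fold. In WT 119 genes rose, 1.64%, and 151 fell, 2.08%, and in PATZ1 KO 274 rose, 3.78%, and 211 fell, 2.91%. Of those that rose in WT, 32.8% also rose in PATZ1 KO, and of those that fell, 16.6% also fell. Of the 100 largest rises in WT, 92 were above 0 in PATZ1 KO, and of the 100 largest falls 81 were below 0, against 49.96% of all genes.

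**Figure D3:**
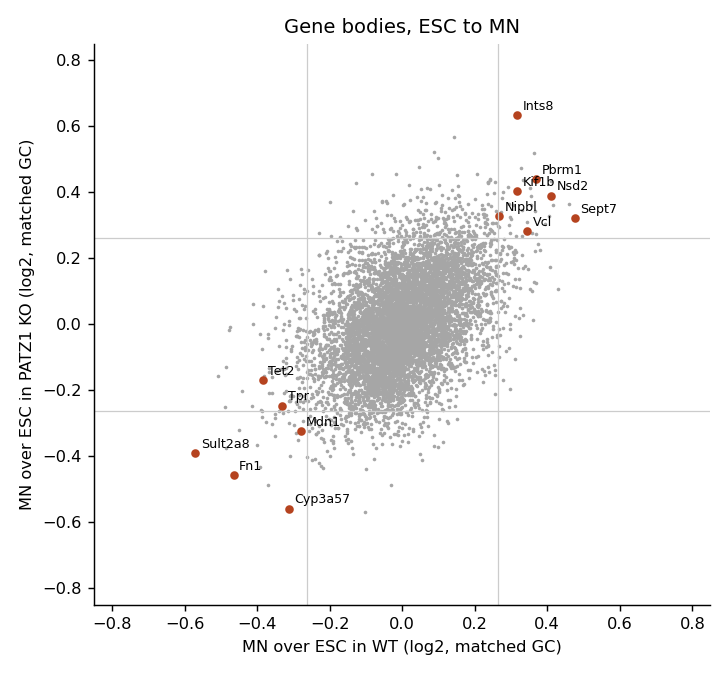
Log2 change of the gene body contact ratio from ESCs to MNs at matched GC, in PATZ1 KO against WT, for 7254 protein-coding genes (1 point each); grey lines mark 1.2-fold and named genes are in red. The cloud rises from lower left to upper right (Pearson's r 0.46), with Sept7, Nsd2 and Pbrm1 at the upper right and Sult2a8 and Fn1 at the lower left.

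Of the 39 genes that rose in both pairs, examples are given by what they encode, with no test of any theme. Kif1b (chr4:149176319-149307693), a kinesin motor for axonal transport, had 0.637, 0.567, 0.848 and 0.773 in the 4 libraries. Both MN libraries were above both ESC libraries, and the change was 0.32 (0.21 to 0.43) in WT and 0.40 (0.29 to 0.51) in PATZ1 KO. Nsd2 (chr5:33820725-33897975), a histone H3 lysine methyltransferase, had 0.592, 0.538, 0.827 and 0.729, with changes of 0.41 (0.24 to 0.58) and 0.39 (0.21 to 0.57). Vcl, which encodes the adhesion protein vinculin, had 0.599, 0.572, 0.771 and 0.720.

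Chromatin genes in this set included Pbrm1 (0.681, 0.572, 0.855 and 0.788), the histone demethylase Kdm2a (0.599, 0.546, 0.763 and 0.680) and Nipbl, the cohesin loader (0.707, 0.618, 0.721 and 0.732). The Nipbl change was 0.27 (0.16 to 0.37) in WT and 0.33 (0.23 to 0.43) in PATZ1 KO, and it passed the fold in both pairs in 4 of 8 other ways of computing it, with values in WT from -0.069 to 0.34. Genes of RNA handling included Tut4, Cpeb4, Dcp1a and Ints8, and Ints8, an Integrator subunit, had the largest change of the set in PATZ1 KO, 0.63 (0.48 to 0.79), with 0.32 (0.16 to 0.47) in WT. Genes of signalling and the cytoskeleton included Sept7, a septin (0.48 in WT and 0.32 in PATZ1 KO), Myo9a, an unconventional myosin (0.41 and 0.39), Arhgap5, a GTPase-activating protein (0.37 and 0.45), and Herc1, a ubiquitin ligase (0.33 and 0.47). Atf2 had 0.46 and 0.36. Kif1b and Vcl stayed past 1.2-fold in both pairs under each of 8 other ways of computing the gene body ratio. Many of the 39 are poor in GC, and without GC correction 34 kept their direction and 14 passed the fold in both pairs, against 25 and 14 of the 25 genes that fell.

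Examples of the 25 genes that fell in both pairs follow in the same way. Fn1 (chr1:71585520-71653200), which encodes the matrix protein fibronectin, had 0.917, 0.832, 0.721 and 0.633 in the 4 libraries. Both ESC libraries were above both MN libraries, and the change was -0.46 (-0.61 to -0.32) in WT and -0.46 (-0.61 to -0.31) in PATZ1 KO. Mybl2, a transcription factor of proliferating cells, had 0.725, 0.657, 0.665 and 0.537, with -0.35 and -0.34. Mdn1 had 0.886, 0.906, 0.753 and 0.729, and G3bp2, a stress granule protein, 0.851, 0.771, 0.679 and 0.553. Jag1 and Efnb2, ligands of Notch and ephrin signalling, had -0.35 and -0.28 and -0.39 and -0.28. The oocyte and early embryo genes Nlrp2 and Nlrp4c gave -0.49 and -0.37 and -0.40 and -0.37, and Sult2a8, a liver sulfotransferase, had the largest fall in WT, -0.57 (-0.80 to -0.34), with -0.39 (-0.61 to -0.17) in PATZ1 KO. Fn1, G3bp2, Smyd2, Nlrp2, Nlrp4c and Cyp3a57 stayed past 1.2-fold in both pairs in all 7 other ways that gave them a value.

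**Figure D4:**
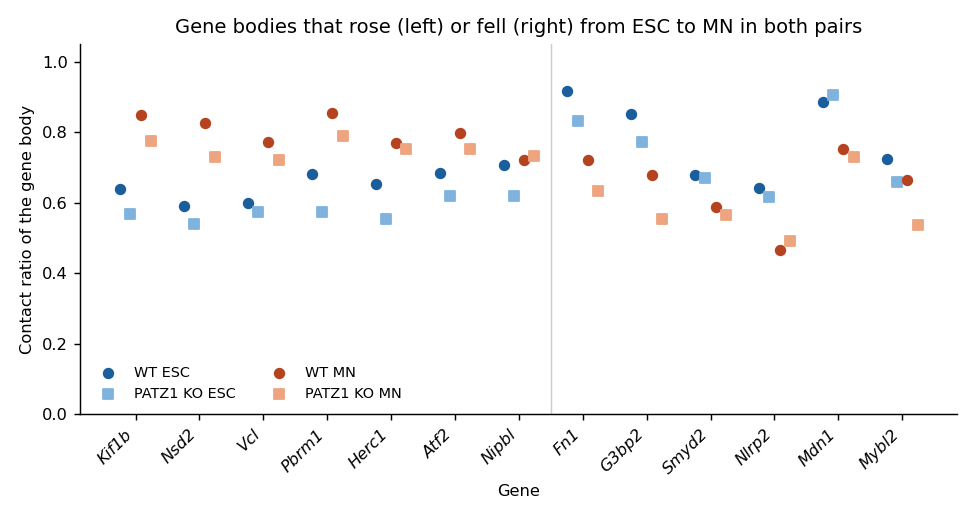
Gene body contact ratio (contacts at D 1 to 5 over contacts at D=0) in the 4 libraries, 1 point per library, for 7 genes that rose and 6 that fell from ESCs to MNs in both pairs. Kif1b goes from 0.637 to 0.848 in WT and from 0.567 to 0.773 in PATZ1 KO, and Fn1 from 0.917 to 0.721 and from 0.832 to 0.633.

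The highest gene bodies were not all stable. Tpr (chr1:150392838-150449935) was highest in WT ESCs, with 1.12, 1.01, 0.836 and 0.837, and had changes of -0.33 (-0.48 to -0.18) and -0.25 (-0.39 to -0.10). Rif1 followed with 0.980, 0.790, 0.754 and 0.782, so that its WT ESC value was the highest of the 4. Cnot1, a scaffold of mRNA deadenylation, was among the 10 highest in both WT libraries, with 0.943, 0.832, 0.908 and 0.777. In WT MNs the list also held Rbm25, Dync1h1, Srcap and Pcm1. The lowest body in both was Drg1, at 0.216 and 0.212, which contains the bin of extreme D=0 count above, and next in WT ESCs were Lipo3 (0.371) and Skint5 (0.386).

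Gene body lists differed from the starts for some lists and not for others. All 8 insulation and cohesin genes long enough to be read were above 0 in both pairs, with medians of 0.11 in WT and 0.17 in PATZ1 KO, and 1 passed 1.2-fold in each, Nipbl. Among the rest, Wapl, which releases cohesin, had 0.051 and 0.26, Pds5a 0.089 and 0.19, Ctcf 0.13 and 0.19 and Stag1 0.086 and 0.14. In WT this rests on the GC correction: without it 3 of the 8 were above 0 in WT, with a median of -0.037, and 8 in PATZ1 KO, with 0.17. Of 29 cadherin and synaptic adhesion genes, 23 were below 0 in both pairs and 0 above in both, where 2415 and 2417 of all 7254 genes were. At their starts 16 of 29 were below 0 in both pairs and 4 above, where 4975 and 4209 of all 16711 start bins were. The medians were -0.057 in WT and -0.13 in PATZ1 KO, or -0.30 and -0.19 without GC correction, and 0 passed the fold in WT and 2 in PATZ1 KO, both lower. Cdh11, a cadherin, had -0.19 and -0.28, and Nrxn3, a presynaptic adhesion gene of 200 bins, -0.092 and -0.27.

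Genes of 500 kb or more behaved like this list, with which they overlap: 134 of 218 were below 0 in both pairs and 22 above, with medians of -0.036 and -0.096, or 163 and 9 without GC correction, with medians of -0.15 and -0.13. At their 211 start bins 101 were below 0 in both pairs and 22 above, to be read against the same 4975 and 4209 of 16711. In genes under 100 kb, 1486 of 4902 were below 0 in both and 1655 above. Without GC matching the ratio was also higher in longer genes in ESCs, from a median of 0.641 under 100 kb to 0.715 at 500 kb or more in WT and from 0.584 to 0.701 in PATZ1 KO, while in MNs it was 0.691 and 0.690 in WT and 0.606 and 0.658 in PATZ1 KO. Median GC content was lower in the long genes, 40.1% against 44.2%, and its part in this was not tested. Pluripotency gene bodies were below 0 in both pairs for 5 of 7, with 1 above, and only Tet2, a DNA demethylase, passed the fold in WT, with -0.38 there and -0.17 in PATZ1 KO. The start bin of Tet2 had 0.23 and 0.28, within half-intervals of 0.52 and 0.48. The body of Tet1, whose start fell in both pairs, had -0.031 and -0.0039. Of 19 motor neuron gene bodies 8 were above 0 in both and 8 below. Of 33 vomeronasal receptor bodies, 22 were below 0 in both and 1 above, of 8 retinoic acid genes 7 and 1, of 64 Zfp genes 13 and 28, and of 12 genes of other lineages 3 and 2.

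The targeted gene is listed before the knockout comparison, although these counts do not measure its RNA or protein. At the start bin of Patz1 (chr11:3288001-3296000) the ratio was 0.785, 0.836, 0.769 and 0.723 in the 4 libraries. PATZ1 KO against WT at matched GC gave 0.26 (-0.26 to 0.77) for ESCs and 0.21 (-0.46 to 0.89) for MNs, not detectable at this depth. The D=0 count of this bin was 158, 116, 117 and 65, lower in PATZ1 KO than in WT in both states, while in the next bin of the gene it was 224, 274, 183 and 171. Whether the lower count at the start comes from the edit was not tested.

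For PATZ1 KO against WT at matched GC, 1892 bins were higher by 1.5-fold in ESCs, 0.712%, and 2619 lower, 0.985%. In MNs 6542 were higher, 2.46%, and 5781 lower, 2.17%. The MN libraries were shallower: the root mean square counting error was 0.226 in ESCs, where the SD over bins was 0.240, and 0.275 in MNs, where it was 0.292. Few of these bins were shared. Of the bins higher in ESCs 4.23% were higher in MNs and of those lower 2.94% were lower, and Pearson's r between the states, which share no library, was -0.019 across bins and -0.020 against neighbouring bins.

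The extreme bins showed the same. They were ranked by these values among 245798 bins. The interval in the state of choice therefore does not allow for that choice. Against WT, the bin of Gsdma (chr11:98672001-98680000), a pore-forming gasdermin, had 0.484 and 0.157 in WT and PATZ1 KO ESCs, and 0.485 and 0.404 in MNs, a difference of -1.53 (-2.17 to -0.88) in ESCs and -0.021 (-0.65 to 0.61) in MNs. Wdr4, a tRNA methylation cofactor, had -1.17 and -0.45, Myo5c -1.16 and -0.44, and Fancc, a DNA repair gene, -1.13 and 0.22. The rises in ESCs were at Rasgrf1 (1.06, and -0.13 in MNs), Igfbp7 (from 0.240 to 0.463 in ESCs, and 0.21 in MNs), Frmd4a (1.04 and -0.14) and at 2 bins without a protein-coding gene. One bin with no annotated gene (chr7:80880001-80888000) was lower in both states beyond counting error, with -1.14 (-1.72 to -0.56) in ESCs and -0.77 (-1.39 to -0.16) in MNs. Chosen in MNs, Nrg3, a neuregulin, had 1.42 (0.83 to 2.01) and 0.42 in ESCs, and Kdm2b, a CpG-binding demethylase, -1.29 (-1.89 to -0.68) and -0.26.

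Over gene bodies, PATZ1 KO against WT again shared little between the states. In ESCs 20 of 7254 genes were higher at 1.2-fold, 0.276%, and 71 lower, 0.979%, and in MNs 67 were higher, 0.924%, and 64 lower, 0.882%. Pearson's r between the states was 0.065 across genes. The SD over genes was 0.1022 in ESCs and 0.1015 in MNs, and the root mean square counting error 0.0745 and 0.0896. Much of the spread was thus counting error, mostly so in MNs, which limits the r that shared changes could give. Of the 100 largest rises in ESCs 52 were above 0 in MNs, and of the 100 largest falls 53 were below 0, against 49.96% of all genes. Only 2 genes were higher and 3 lower in both. The 2 were 10% of the genes higher in ESCs, where 0.924% of all genes were higher in MNs. The 3 were 4.2% of the genes lower in ESCs, where 0.882% of all genes were lower in MNs. The genes higher in both were Nlrp5, an oocyte gene (chr7:23385889-23441922), with 0.489, 0.552, 0.373 and 0.481 in the 4 libraries, and Clec4a2, a lectin receptor of immune cells (0.674, 0.742, 0.552 and 0.657). Nlrp5 gave 0.28 (0.07 to 0.50) in ESCs and 0.54 (0.27 to 0.82) in MNs.

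The named genes lower in both were St13, a co-chaperone of Hsp70 (0.658, 0.475, 0.749 and 0.590), and Nup153, a nuclear pore protein (0.7504, 0.575, 0.793 and 0.658). In PATZ1 KO against WT, Nup153 had -0.29 (-0.44 to -0.13) in ESCs and -0.29 (-0.48 to -0.10) in MNs. The 3 calls lower in both fell to 0 with adjusted interaction frequencies and without GC correction, with the direction kept by each gene. Of the 10 named genes most changed in ESCs 4 had the same direction in MNs, 0 of them beyond the counting interval there, and of the 10 most changed in MNs 6 had the same direction in ESCs, 2 of them beyond it, Nlrp5 and Gm7298 (0.39 in MNs and 0.16 in ESCs). Of all genes, 49.96% were above 0 and 49.96% below 0 in the other state. Among the other named genes, Ctss, a lysosomal protease, had -0.38 in ESCs and 0.100 in MNs, Slc35f5 0.38 and -0.037, Plod1 0.021 and 0.44, and Atg16l2 0.057 and -0.40.

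**Figure D5:**
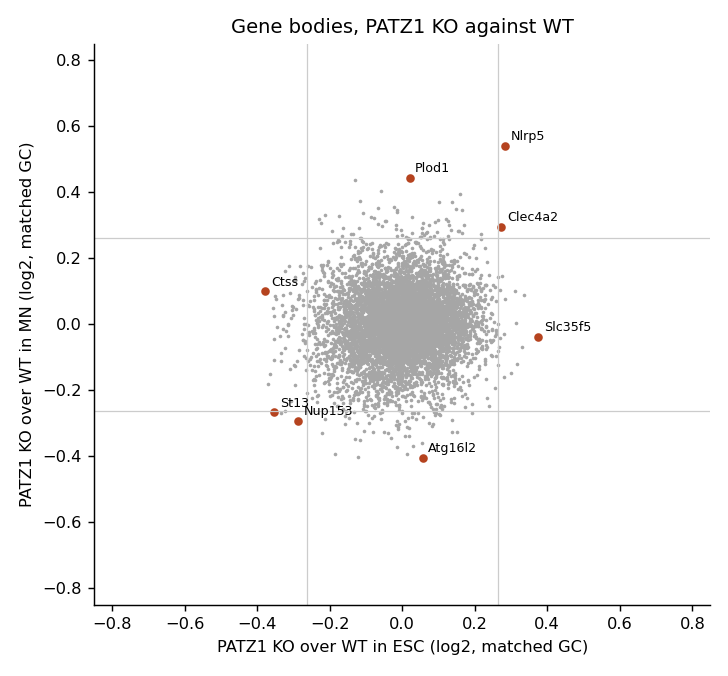
Log2 ratio of PATZ1 KO over WT for the gene body contact ratio at matched GC, in MNs against ESCs, for 7254 protein-coding genes (1 point each); grey lines mark 1.2-fold. The cloud is round (Pearson's r 0.065), and Nlrp5 and Clec4a2 at the upper right and St13 and Nup153 at the lower left are the named genes past 1.2-fold in both states.

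Over all gene starts, 99 bins were higher in PATZ1 KO ESCs, 0.592%, and 323 lower, 1.93%, and in MNs 546 were higher, 3.27%, and 384 lower, 2.3%, and with lists this short the counts below stand near those shares. In ESCs 0 of 32 Hox start bins passed 1.5-fold, with a median of 0.11 against -0.042 over all gene starts, and in MNs 2 were higher and 1 lower, with a median of 0.011. Of 32 pluripotency starts 0 were higher and 1 lower in ESCs, Tet1 (-0.68), and 2 higher and 0 lower in MNs. Of 37 motor neuron starts 0 passed in ESCs and 1 was higher in MNs, Isl1 (1.06), where the WT MN library held the low value. The long gene bodies had medians of 0.074 in ESCs and 0.0087 in MNs, but 0.083 and 0.12 without GC correction, so the value in MNs rests on that correction.

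Bins were also grouped by a short motif of PATZ1, GGGGAGGGG, read on both strands. It occurred at least once in 36.9% of bins. At matched GC the median difference of PATZ1 KO against WT was 0.00049 in ESCs and -0.00064 in MNs in bins without the motif, and -0.0037 and 0.011 in the 15496 bins with 3 or more copies. A match is a run of letters and not a bound site. For the core CTCF motif CCAGGGGGC, the log2 ratio of contacts to the right over contacts to the left had a median of 0 in each library in 5458 bins with the motif on the plus strand only, and between -0.0097 and 0 in 5627 bins with it on the minus strand only.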

How the data were processed

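Micro-C was performed by the study on 1 library per group, and HiCcompare was run on WT against PATZ1 KO in each cell state by the kit's maker. The deposited lists give, per pair of 8 kb bins, interaction frequencies, which are counts of contacts that the authors did not scale, and adjusted interaction frequencies, a signal that the authors normalised jointly against distance. The labels name mm10; GRCm38.p6 sequence, GENCODE gene models and RefSeq promoters were used. Per the study's methods, reads were aligned and valid pairs kept with the kit maker's published Micro-C tools; the aligner, its version and its filters are not named in the sources used here. Column 1 was read as WT and column 2 as PATZ1 KO from the order of the comparison's name, and every knockout direction rests on this. Each listed pair had at least 1 contact in both libraries, so bins with an unlisted pair were left out, as were bins with 1% or more N in the bin or the 5 to its right. The authors' fold changes, p-values and scores were not used.

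Ratios were computed with Python 3.11.15, NumPy 2.4.6 and pandas 2.3.3. Changes are log2 ratios of contact ratios, centred on the median or on the median of 50 GC classes (30 for gene bodies). Counting intervals come from the Poisson error of the 4 counts. The neighbour correction used the median of 10 bins on either side. Scripts were tested on simulated counts. PCR duplicates and shared fragments mean that intervals cover counting error only.

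The members, gene lists and gene body measure were chosen with earlier results of these data known. Named bins needed at least 100 D=0 contacts per library: the 10 highest and lowest by ratio with 1 kept within 5 bins, the 10 largest rises and falls at gene starts in WT, the 5 highest and lowest for the knockout, and the largest rise and fall per list. Gene bodies, called at 1.2-fold, were added after the data were seen, and their examples, Smyd2 and the second genes of a list too, were picked after their values were seen. Members on 1 chromosome are counted but not named, and some other named items are not reported here.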

Additional observations from a re-analysis of the deposited data

Results flagged for a closer look

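Among 243 named values, 5 had an effect above 0 in one arm of a comparison and below 0 in the other, each beyond its counting interval, and none of these differences was tested. The start bin of Hdac9, a histone deacetylase gene of over 500 kb, was 0.62 from ESCs to MNs in WT and -0.59 in PATZ1 KO, and PATZ1 KO against WT was 0.60 in ESCs and -0.61 in MNs, values that rest on the same 4 libraries. Over gene bodies, PATZ1 KO against WT was 0.15 in ESCs and -0.067 in MNs for Cdh13, -0.057 and 0.056 for Cdh18, and 0.071 and -0.063 for Lsamp. These 3 are long adhesion genes, whose many bins give narrow counting intervals, and their values are at matched GC. For the whole cadherin and synaptic adhesion list the medians were 0.074 in ESCs and -0.00074 in MNs at matched GC. Without GC correction they were 0.088 and 0.18, so a sign below 0 in MNs can rest on that correction.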

How the results depend on the processing

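No paired test was run, and with 1 library in each group the pairs are only set side by side. Counts of bins moved by over 1.5 times with the fold, the distance and the denominator, and the cause was not tested beyond what each setting does. In the order WT ESC to MN higher and lower, PATZ1 KO in ESCs higher and lower, and PATZ1 KO in MNs higher and lower, they were 3658, 5775, 480, 660, 2525 and 1982 with pairs that start or end in the bin, 16273, 18456, 7818, 10111, 14872 and 14658 at D 2 to 5, where fewer contacts are counted, and 251, 516, 17, 37, 254 and 144 at 2-fold. With the geometric mean of both D=0 counts, 5313 bins were higher in the WT ESC to MN comparison, and the knockout counts were 822, 1410, 3279 and 2480. Without centring, the knockout counts were 909 higher and 5006 lower in ESCs and 2991 and 12370 in MNs, since the median log2 change before centring was -0.070 and -0.10. From ESC to MN in WT, 5600 bins were higher and 6656 lower at matched GC and 4870 and 5001 against neighbouring bins, alternatives chosen after seeing the data. Counts at other D=0 minimums, with adjusted frequencies, with the deeper library of each state thinned to the total of the other at D 0 to 5, with unlisted pairs as 0 or without bins of high D=0 count stayed within 1.5 times, as did the knockout counts against neighbours and without GC correction.

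For gene bodies, whose alternatives were all chosen after seeing the data, the count higher and lower in both ESC to MN pairs was 185 and 111 at D 2 to 5 and 18 and 3 with at least 10 bins per gene, where fewer genes were read. Without GC correction 71 were lower in both, and 14 of the 39 and 14 of the 25 genes stayed past the fold. The PATZ1 KO counts higher and lower in ESCs and MNs were 7 and 22 at D 2 to 5, 0 and 1 with pairs that start or end in the bin, and 0 and 0 with at least 10 bins, and 1 was higher with the geometric mean and with adjusted frequencies. Pearson's r stayed between 0.42 and 0.60 for ESC to MN and between 0.039 and 0.095 for the knockout. Depth limits single bins: at a median of 143 to 223 contacts at D=0 the counting error of a change was 0.22 to 0.27.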
